A study of Mus musculus with 16 samples.

Results

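The dual-specificity phosphatase genes *Dusp1*, *Dusp2*, *Dusp5*, *Dusp6*, *Dusp10* and *Dusp16* and the *Zfp36* family genes *Zfp36*, *Zfp36l1* and *Zfp36l2* were followed in splenic myeloid-derived suppressor cells (MDSCs) of melanoma-bearing mice. The 9 genes were chosen by symbol and were all found among the 24421 gene symbols of each deposited count list. Libraries were made from monocytic MDSCs (M-MDSCs, sorted as CD11b high Ly6C+ Ly6G-) and granulocytic MDSCs (G-MDSCs, sorted as CD11b high Ly6C- Ly6G+). The 4 groups were WT M-MDSCs, *Nlrp3*-/- M-MDSCs, WT G-MDSCs and *Nlrp3*-/- G-MDSCs, with 4 libraries each. Both subsets were taken from each of 8 mice, 4 WT (C57BL/6 by the labels, C57BL/6J by the methods) and 4 *Nlrp3*-/- on the C57BL/6 background. All 8 carried subcutaneous tumors from 300000 implanted cells of B16.F10, a melanoma line of the same strain, with no other treatment. The *Nlrp3*-/- allele is constitutive, with an EGFP cassette that disrupts the gene, so every cell of these mice lacked NLRP3, the sensor of an inflammasome. No tumor-free mice were sequenced, and mice were matched for age, at 6 to 12 weeks by the general statement of the methods, and for sex, which is not named.

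Both families hold members that can switch inflammatory signalling off. DUSP phosphatases remove the activating phosphates from the mitogen-activated protein kinases (MAPKs) ERK, JNK and p38, and many of them are themselves transcribed within minutes of MAPK activation. ZFP36 proteins bind AU-rich elements in the 3′ ends of cytokine and chemokine mRNAs and bring in the CCR4-NOT deadenylase, which starts the decay of the message. In macrophages and neutrophils the families are linked, because the kinase downstream of p38 holds ZFP36 protein inactive and DUSP1 switches p38 off.

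QuantSeq libraries, which read the 3′ end of each mRNA, held 2295967 to 6079866 counts on genes. Levels are given as CPM, the count of a gene scaled to a common library size, on 1 scale over the 16 libraries, and fold changes come from edgeR's quasi-likelihood test on the libraries of each comparison, scaled on their own. A gene was called at a Benjamini-Hochberg adjusted p under 0.05 and a fold change above 1.5. *Nlrp3* itself had 219 to 632 counts in WT and 4 to 11 in *Nlrp3*-/- M-MDSCs, and 744 to 1365 against 21 to 59 in G-MDSCs, as the labels say. The summed CPM of 10 monocyte markers was 6654 to 10406 in M-MDSCs. In G-MDSCs it was 878 to 1229 in WT and 1564 to 1656 in *Nlrp3*-/- libraries. The sum of 11 neutrophil markers was 115407 to 175868 in G-MDSCs. In M-MDSCs the neutrophil markers summed to 1507 to 2619.7 CPM, apart from WT M-MDSC replicate 2 at 8795 CPM. The symbol of Ly6G, the antigen of the sort, was not among those analysed. *Xist* had group means of 208 to 577 CPM. The Y-linked *Eif2s3y*, *Kdm5d* and *Uty* stood at 0 CPM in all 4 groups and *Ddx3y* at 0.0617 CPM or less, as in female mice. The 10 markers of red pulp macrophages were higher in *Nlrp3*-/- mice, at 264 to 408 against 157 to 168 CPM in M-MDSCs and 999.5 to 1248 against 468 to 784 CPM in G-MDSCs. Likewise the sum of 8 NK cell markers stood at 133 to 203 against 54.9 to 104 CPM in M-MDSCs and 81.2 to 123 against 39.6 to 68.8 CPM in G-MDSCs. In M-MDSCs 6 of 7 NK genes tested had a positive log2 fold change, and *Gzma* was called. In G-MDSCs 3 of 5 did, with *Gzma* and *Nkg7* called. In G-MDSCs, 2 further sums were higher in *Nlrp3*-/- libraries, without overlap. They were those of 10 dendritic cell markers (275 to 317 against 219.9 to 273 CPM) and 8 eosinophil markers (58.9 to 62.2 against 28.4 to 58.0 CPM). In each of these lists 2 of 3 genes tested had a positive log2 fold change, and none was called. Most of the dendritic cell sum was *Itgax*, with means of 241 against 176 CPM, while *Ccr7* was lower at 48.3 against 64.1 CPM. Of the eosinophil markers, *Siglecf* and *Ccr3* had higher means, and *Prg2* and *Il5ra* had lower ones. The 45S ribosomal RNA symbol *Rn45s* took 13.4 to 25.9% of the counts in WT libraries and 5.60 to 13.5% in *Nlrp3*-/- libraries. The part of these differences in the results that follow was not tested, beyond the fits without *Rn45s* and without WT M-MDSC replicate 2. In bulk RNA, fewer cells of a type and less RNA per cell cannot be told apart.

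Between *Nlrp3*-/- and WT mice 3 members were called. *Zfp36l2* was lower in both subsets, with a fold change of 0.343 in M-MDSCs and 0.276 in G-MDSCs, while *Dusp1* and *Dusp2* were 1.76-fold and 2.26-fold higher in G-MDSCs. Between the subsets, *Dusp1*, *Dusp16*, *Zfp36* and *Zfp36l1* were higher in G-MDSCs of WT mice, and these genes with *Dusp2* and *Dusp6* in G-MDSCs of *Nlrp3*-/- mice. *Dusp10* was not called in any comparison, and *Dusp5* was too low to test.

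**Figure D1:**
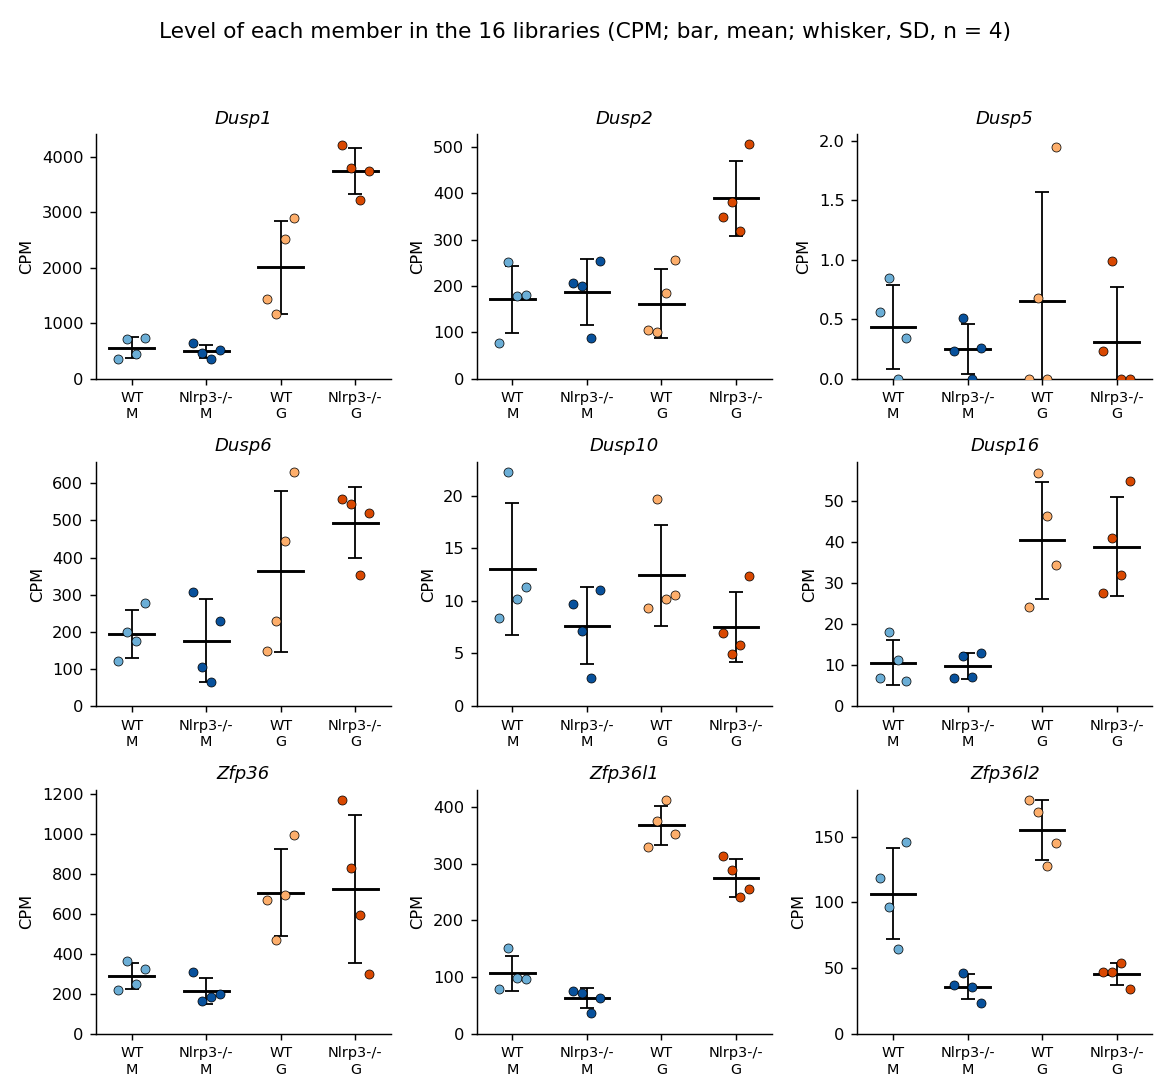
Level of the 9 members in CPM (y axis, from 0, on its own scale in each panel) in WT and *Nlrp3*-/- M-MDSCs (M) and G-MDSCs (G). Points are libraries in the order of replicates 1 to 4, bars are means and whiskers are SDs (n = 4); *Zfp36l2* is lower in both *Nlrp3*-/- groups, and *Dusp1* and *Dusp2* are highest in *Nlrp3*-/- G-MDSCs.

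*Zfp36l2* encodes a CCCH zinc-finger protein that, like ZFP36, binds AU-rich elements and is known for its part in stem and progenitor cells and in lymphocyte development. In M-MDSCs it stood at 119, 96.7, 64.8 and 146 CPM in WT replicates 1 to 4 and at 37.5, 46.4, 35.7 and 23.8 CPM in *Nlrp3*-/- replicates. In G-MDSCs it stood at 178, 169, 128 and 146 CPM in WT and at 47.1, 46.7, 53.7 and 33.8 CPM in *Nlrp3*-/- replicates. Every WT library lay above every *Nlrp3*-/- library, whichever subset it came from. The log2 fold change of *Nlrp3*-/- against WT was −1.54 (SE 0.26) in M-MDSCs, with an adjusted p of 0.00507 by edgeR's quasi-likelihood test. In G-MDSCs it was −1.86 (SE 0.19), with an adjusted p of 4.43e-05, rank 21 by p among the 9273 genes tested. Without WT M-MDSC replicate 2 the M-MDSC value was −1.58 (adjusted p 0.0134). The difference between the 2 genotype effects was −0.20 (SE 0.33, adjusted p 0.992), with a 95% interval of −0.85 to 0.44.

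The counts behind *Zfp36l2* were 129 to 688 a library. Its call held in each of the other settings of the G-MDSC comparison and in 20 of 21 of the M-MDSC comparison, the exception being a correction for transcript GC and length together with a block on the replicate number. By group the order was WT G-MDSCs, WT M-MDSCs, *Nlrp3*-/- G-MDSCs and *Nlrp3*-/- M-MDSCs, with means of 155, 107, 45.3 and 35.8 CPM. The 2 WT groups overlapped, as did the 2 *Nlrp3*-/- groups, and a gap separated the genotypes. G-MDSCs against M-MDSCs gave a log2 fold change of 0.55 (SE 0.23, adjusted p 0.0573) in WT mice and 0.23 (SE 0.23, adjusted p 0.414) in *Nlrp3*-/- mice, neither called. With the mouse as a block the WT value was 0.60 (adjusted p 0.00755) and was called, as it was without WT M-MDSC replicate 4 (0.68, adjusted p 0.0289) or WT G-MDSC replicate 3 (0.64, adjusted p 0.0423). With library size as the only scaling the value turned to −0.20 in WT and −0.48 in *Nlrp3*-/- mice.

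*Zfp36* family mRNAs carry the element their own proteins bind. The heptamer TATTTAT, a core AU-rich element, was searched on the sense strand of the 3′ UTR of 1 GENCODE transcript per gene. It occurred 3 times in each of *Dusp1*, *Zfp36*, *Zfp36l1* and *Zfp36l2*, once in *Dusp2*, and in none of *Dusp5*, *Dusp6*, *Dusp10* and *Dusp16*. At least 1 copy was held by 55.6% of the 9 members and 24.2% of 21663 protein-coding genes, and at least 3 copies by 44.4% and 3.38%. Among the 9999 of these genes tested over the 16 libraries the shares were 27.2% and 3.33%. The median 3′ UTR was 1113 bases long in the members, 739 in all protein-coding genes and 936 in the tested ones. The shares were not adjusted for this length. Sites of the 3 members called between the genotypes are shown on mm10, each a stretch of 21 bases in the last exon with the heptamer in capitals. Those of *Dusp1* lie on the minus strand at chr17:26506163-26506183, chr17:26505874-26505894 and chr17:26505678-26505698, that of *Dusp2* on the plus strand at chr2:127338308-127338328, and those of *Zfp36l2* on the minus strand at chr17:84184918-84184938, chr17:84184870-84184890 and chr17:84184684-84184704.
Dusp1 site 1: tggtcctTATTTATttaacac
Dusp1 site 2: ttaccttTATTTATttttgtg
Dusp1 site 3: gtttgttTATTTATgatctga
Dusp2 site 1: cactttaTATTTATatagaac
Zfp36l2 site 1: tttaactTATTTATtatcttg
Zfp36l2 site 2: catactgTATTTATcgagtat
Zfp36l2 site 3: tatgtaaTATTTATttcatta
The heptamer is a match of letters and no measure of binding. All 3 called members held it, those that were higher and the one that was lower.

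*Dusp1* encodes the inducible nuclear phosphatase also called MKP-1, which acts mostly on p38 and JNK and restrains cytokine production in macrophages. In M-MDSCs its level was 354, 712, 435 and 732 CPM in WT replicates 1 to 4 and 639, 461, 359 and 521 CPM in *Nlrp3*-/- replicates. In G-MDSCs it was 1438, 1163, 2519.7 and 2904 CPM in WT and 4215, 3804, 3222 and 3747 CPM in *Nlrp3*-/- replicates. The genotypes overlapped fully in M-MDSCs, while in G-MDSCs all *Nlrp3*-/- libraries lay above all WT libraries. The WT G-MDSC libraries fell into a lower pair and a higher pair, and the coefficient of variation was 41.8% there against 10.9% in *Nlrp3*-/- G-MDSCs. The log2 fold change of *Nlrp3*-/- against WT was 0.81 (SE 0.25, adjusted p 0.0388) in G-MDSCs and −0.14 (SE 0.26, adjusted p 0.766) in M-MDSCs. This call was lost in 6 of the 8 fits that left out 1 library. It was kept only without WT G-MDSC replicate 3 (adjusted p 0.0259) or replicate 4 (adjusted p 0.0142), and otherwise the adjusted p was 0.0543 to 0.0928, with values from 0.63 to 1.05 over the 8 fits. It was also lost after correcting for transcript GC and length (0.59, adjusted p 0.135).

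*Dusp1* was also higher in G-MDSCs than in M-MDSCs, in both genotypes. Its level was higher in G-MDSCs than in M-MDSCs of the same mouse in 4 of 4 WT mice, by 1.63-fold to 5.79-fold, and in 4 of 4 *Nlrp3*-/- mice, by 6.60-fold to 8.97-fold. The log2 fold change of G-MDSCs against M-MDSCs was 1.85 (SE 0.33, adjusted p 0.000496) in WT and 2.80 (SE 0.20, adjusted p 5.28e-08) in *Nlrp3*-/- mice. The order was *Nlrp3*-/- G-MDSCs, WT G-MDSCs, WT M-MDSCs and *Nlrp3*-/- M-MDSCs, with means of 3747, 2006, 558 and 495 CPM, and of these neighbours the M-MDSC groups overlapped.

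*Dusp2* encodes PAC-1, a nuclear phosphatase of blood cells that acts on ERK and other MAPKs. In M-MDSCs it was measured at 76.0, 253, 177 and 179.9 CPM in WT replicates 1 to 4 and 206, 199, 88.1 and 254 CPM in *Nlrp3*-/- replicates. In G-MDSCs it was measured at 106, 99.8, 185 and 256 CPM in WT and 349, 381, 319 and 506 CPM in *Nlrp3*-/- replicates. The 4 *Nlrp3*-/- G-MDSC libraries stood above all other libraries of the study, and the other 3 groups overlapped one another. In G-MDSCs the log2 fold change of *Nlrp3*-/- against WT was 1.18 (SE 0.27, adjusted p 0.00867) and the call held whichever library was left out, at 1.01 to 1.49. It was lost when transcript GC and length were corrected for (0.77, adjusted p 0.0791); the *Dusp2* transcript has 59.2% GC, more than 95.2% of the genes tested. In M-MDSCs the value was 0.16 (SE 0.36, adjusted p 0.809), with a 95% interval of −0.54 to 0.86.

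Between the subsets *Dusp2* was called in *Nlrp3*-/- mice and not in WT mice. G-MDSCs against M-MDSCs gave −0.08 (SE 0.36, adjusted p 0.856) in WT mice and 0.93 (SE 0.27, adjusted p 0.00946) in *Nlrp3*-/- mice on the log2 scale. Within single mice the ratio of G-MDSCs to M-MDSCs was 0.395 to 1.43 in WT and 1.69 to 3.63 in *Nlrp3*-/- mice. Under library size as the only scaling the *Nlrp3*-/- value was 0.20 (adjusted p 0.521) and was no longer called.

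A genotype effect past the threshold in G-MDSCs alone does not show that the subsets responded differently, so the difference was tested in a model of all 16 libraries. For *Dusp1* the genotype effect was larger in G-MDSCs by 1.07 (SE 0.39) on the log2 scale, with p 0.0127 and adjusted p 0.992 by edgeR's quasi-likelihood test. For *Dusp2* it was larger by 1.14 (SE 0.49), with p 0.0292 and adjusted p 0.992. None of the 8 members tested passed, 2 had an unadjusted p under 0.05, and DESeq2 also called 0; of all 10696 genes 3 were called, or 0.0280%. With the mouse as a block the adjusted p was 0.282 for *Dusp1* and 0.295 for *Dusp2*. Without WT M-MDSC replicate 2 the differences were 0.75 and 0.70.

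*Dusp6* encodes MKP-3, the cytoplasmic phosphatase selective for ERK and a feedback product of ERK signalling. In M-MDSCs it read 122, 201, 177 and 279 CPM in WT replicates 1 to 4 and 307, 104, 65.0 and 229 CPM in *Nlrp3*-/- replicates. In G-MDSCs it read 149, 229, 443 and 629 CPM in WT and 559, 545, 353 and 519.6 CPM in *Nlrp3*-/- replicates. The WT G-MDSC libraries spanned a wider range than the 4 group means, and all neighbours in the order of groups overlapped. No genotype difference was called, with log2 fold changes of −0.09 (SE 0.42, adjusted p 0.918) in M-MDSCs and 0.36 (SE 0.34, adjusted p 0.505) in G-MDSCs. The subset difference was 1.35 (SE 0.38, adjusted p 0.00822) in *Nlrp3*-/- mice, where the 2 groups did not overlap, and 0.90 (SE 0.39, adjusted p 0.0652) in WT mice. All 8 mice had more *Dusp6* in G-MDSCs than in M-MDSCs, and with the mouse as a block the WT value of 0.75 (SE 0.19) was called, with an adjusted p of 0.00517. The WT value was called in 8 of 21 other settings in all, among them DESeq2 (adjusted p 0.0395) and the fits without WT G-MDSC replicate 1 (1.17, adjusted p 0.0111) or replicate 2 (1.08, adjusted p 0.0415). With library size as the only scaling it fell to 0.18 in WT mice and to 0.62 (adjusted p 0.174) in *Nlrp3*-/- mice, and neither was called.

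*Dusp1*, *Dusp2* and *Dusp6* moved together from library to library. As deviations of log2 CPM from the group means over 16 libraries, Pearson's r was 0.841 for *Dusp1* with *Dusp6*, 0.825 for *Dusp1* with *Dusp2* and 0.782 for *Dusp2* with *Dusp6*. The points share library and depth, and pairs of them share a mouse, so these are descriptions without a test. *Zfp36l2* did not follow them, with r of −0.088 with *Dusp1* and −0.405 with *Dusp2*.

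**Figure D2:**
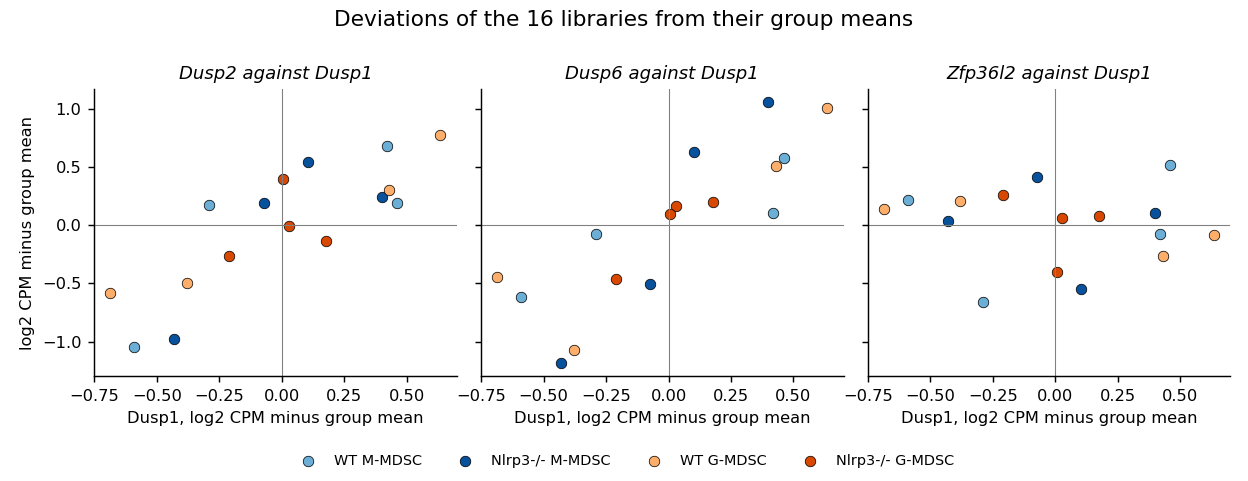
Each point is 1 of the 16 libraries, colored by group, with log2 CPM minus the mean of its group for *Dusp1* on the x axis and for *Dusp2*, *Dusp6* or *Zfp36l2* on the y axis. The first 2 panels rise from lower left to upper right (r of 0.825 and 0.841), and the *Zfp36l2* panel shows no such slope (r of −0.088).

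The start-site regions of *Dusp1*, *Dusp2* and *Dusp6* are shown for reference, from RefSeq on GRCm38.p6, as the bases from −150 to −51 before the start. They lie at chr17:26508523-26508622 on the minus strand for *Dusp1*, chr2:127336009-127336108 on the plus strand for *Dusp2* and chr10:99263081-99263180 on the plus strand for *Dusp6*. Capitals mark the cAMP response element TGACGTCA, which was found in *Dusp1*.
Dusp1: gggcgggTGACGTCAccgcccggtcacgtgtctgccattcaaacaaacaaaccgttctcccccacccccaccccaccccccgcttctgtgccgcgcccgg
Dusp2: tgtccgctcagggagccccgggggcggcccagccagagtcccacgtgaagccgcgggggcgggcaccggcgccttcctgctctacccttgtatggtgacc
Dusp6: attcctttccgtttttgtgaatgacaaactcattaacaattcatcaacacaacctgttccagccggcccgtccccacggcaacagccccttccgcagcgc
In the full 300-base windows, searched on both strands, the complete element was held by 1 of 8 members with a window and by 1.79% of 32851 promoters, and the shorter TGACG it contains by 4 of 8 members and 20.8% of promoters. The CArG box, the site of serum response factor, was held by 2 of 8 members and 1.63% of promoters, and AP-1 TGANTCA by 1 of 8 and 7.81%. The TATA box TATAA was held by 2 of 8 members and 24.9% of promoters, and the NF-kB motif by 0 of 8 and 4.51%. No motif searched was common to *Dusp1*, *Dusp2* and *Dusp6* apart from GGAA, the core of ETS sites, which 96% of promoters hold.

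*Dusp16* encodes MKP-7 and *Dusp10* encodes MKP-5, phosphatases that prefer JNK and p38. *Dusp16* was low in M-MDSCs, at 6.87, 18.1, 11.2 and 6.17 CPM in WT replicates 1 to 4 and 6.86, 12.3, 7.10 and 12.8 CPM in *Nlrp3*-/- replicates. In G-MDSCs *Dusp16* reached 24.0, 56.9, 46.3 and 34.2 CPM in WT and 27.5, 41.0, 31.9 and 54.8 CPM in *Nlrp3*-/- replicates. Every G-MDSC library exceeded every M-MDSC library, and the genotypes overlapped in each subset. The log2 fold change of G-MDSCs against M-MDSCs was 1.89 (SE 0.36, adjusted p 0.000755) in WT and 1.86 (SE 0.30, adjusted p 0.000123) in *Nlrp3*-/- mice. Against WT, *Nlrp3*-/- libraries gave −0.12 (SE 0.36, adjusted p 0.861) in M-MDSCs and −0.15 (SE 0.28, adjusted p 0.747) in G-MDSCs, and both turned positive after correcting for transcript GC and length, at 0.083 and 0.12.

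*Dusp10* was low throughout, with 13 to 158 counts a library. It was found at 8.36, 22.2, 10.2 and 11.3 CPM in WT M-MDSCs, 9.66, 7.17, 2.72 and 11.0 CPM in *Nlrp3*-/- M-MDSCs, 9.35, 19.6, 10.2 and 10.5 CPM in WT G-MDSCs and 6.93, 4.94, 5.80 and 12.3 CPM in *Nlrp3*-/- G-MDSCs. Replicate 2 was highest in both WT groups, and these 2 libraries came from the same mouse. All 4 groups overlapped, and no comparison was called, with log2 fold changes against WT of −0.72 (SE 0.42, adjusted p 0.268) in M-MDSCs and −0.82 (SE 0.38, adjusted p 0.153) in G-MDSCs. *Dusp5*, an inducible nuclear phosphatase for ERK, had 0 to 6 counts a library and no count in 6 of 16 libraries, where 3 counts were worth 0.349 to 1.17 CPM. No difference in *Dusp5* was detectable at this depth.

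*Zfp36* encodes tristetraprolin, the founding member of the family, which drives decay of *Tnf* and chemokine mRNAs. In M-MDSCs it was at 220.0, 364, 248 and 326 CPM in WT replicates 1 to 4 and at 311, 163, 183 and 201 CPM in *Nlrp3*-/- replicates. In G-MDSCs it was at 669, 468, 696 and 996 CPM in WT and at 1172, 831, 594 and 298 CPM in *Nlrp3*-/- replicates. The *Nlrp3*-/- G-MDSC libraries were the most spread, and their lowest fell below the highest *Nlrp3*-/- M-MDSC library. The log2 fold change of G-MDSCs against M-MDSCs was 1.29 (SE 0.24, adjusted p 0.000693) in WT and 1.64 (SE 0.34, adjusted p 0.00111) in *Nlrp3*-/- mice, and all 8 mice had more in G-MDSCs. With library size as the only scaling the WT value was 0.56 (adjusted p 0.0639). *Nlrp3*-/- against WT gave −0.39 (SE 0.24, adjusted p 0.294) in M-MDSCs and −0.05 (SE 0.33, adjusted p 0.937) in G-MDSCs, and the first was called only when *Nlrp3*-/- M-MDSC replicate 1 was left out (−0.68, adjusted p 0.0339).

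*Zfp36l1* encodes a further family member, which binds the same elements and is known in lymphocyte and erythroid development. In M-MDSCs its CPM was 79.5, 151, 97.6 and 97.0 in WT replicates 1 to 4 and 75.7, 72.5, 37.0 and 63.7 in *Nlrp3*-/- replicates. In G-MDSCs its CPM was 329.9, 376, 412 and 351 in WT and 314, 289, 240.1 and 255 in *Nlrp3*-/- replicates. The groups of *Zfp36l1* did not overlap at any step of their order, which ran from WT G-MDSCs through *Nlrp3*-/- G-MDSCs and WT M-MDSCs to *Nlrp3*-/- M-MDSCs. The subset difference was 1.79 (SE 0.20, adjusted p 1.45e-05) in WT and 2.02 (SE 0.22, adjusted p 3.3e-06) in *Nlrp3*-/- mice on the log2 scale. The genotype difference in G-MDSCs was −0.51 (SE 0.15, adjusted p 0.0322), a fold change of 0.704 that is smaller than the 1.5-fold minimum. In M-MDSCs it was −0.74 (SE 0.26, adjusted p 0.0793), and it was called by DESeq2 (adjusted p 0.0338), by edgeR's exact test (adjusted p 0.0412), in the model of all 16 libraries (adjusted p 0.025) and without *Nlrp3*-/- M-MDSC replicate 1 (−0.90, adjusted p 0.0349). WT M-MDSC replicate 2 was the highest M-MDSC library of *Zfp36l1*, and without it the value was −0.51 (adjusted p 0.247).

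**Figure D3:**
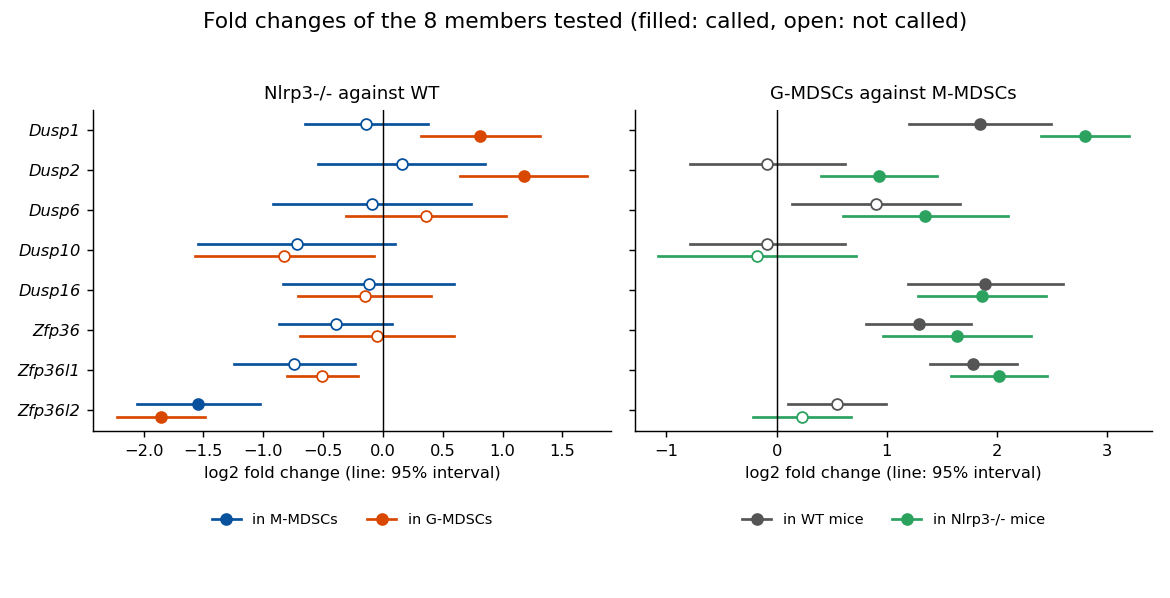
Log2 fold changes (x axis) of the 8 members tested, with lines of 1.96 SE to either side, for *Nlrp3*-/- against WT in each subset (left) and G-MDSCs against M-MDSCs in each genotype (right). Filled circles are called genes; *Zfp36l2* lies at −1.54 and −1.86 on the left, and *Dusp1*, *Dusp16*, *Zfp36* and *Zfp36l1* lie between 1.29 and 2.80 on the right.

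The counts of members called are set here against all genes. In M-MDSCs 1 of 8 members was called between the genotypes, against 10.6% of 9986 genes, and that member was lower, as were 7.10% of genes. Groups of 2 members, *Zfp36l1* and *Zfp36l2*, did not overlap there, against 19.3% of genes. In G-MDSCs 3 of 8 members were called, against 16.4% of 9273 genes. Of these, 2 were higher (4.70% of genes) and 1 was lower (11.7%), and 4 members had groups that did not overlap (24.4%). The median log2 fold change of the members was −0.27 in M-MDSCs and −0.10 in G-MDSCs, where all genes had 0.07 and 0.03. The comparisons of subset and genotype share libraries, so they are not independent of each other.

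Between the subsets a call was common. In WT mice 4 of 8 members were called, against 53.3% of 9739 genes, which is near the background. All 4 were higher in G-MDSCs, against 26.3% of genes, and the groups of 4 members did not overlap, against 51.9%. In *Nlrp3*-/- mice 6 of 8 were called, against 51.0% of 10071 genes, all of them higher (23.7% of genes), and 5 had groups that did not overlap (50.2%). The median log2 fold change of the members was 1.10 in WT and 1.49 in *Nlrp3*-/- mice, and that of all genes was −0.05 and −0.12. Scaling by library size alone moved the median of all genes to −0.79 in WT and −0.83 in *Nlrp3*-/- mice, and the share of calls that were lower in G-MDSCs from 50.8% to 81.3% and from 53.6% to 81.5%. *Dusp1*, *Dusp16* and *Zfp36l1* were called higher in G-MDSCs under that scaling too, in both genotypes.

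Of the kinases that the DUSPs act on, 8 MAP kinase genes were tested in each subset and none was called between the genotypes, with an unadjusted p under 0.05 for 3 in M-MDSCs and 2 in G-MDSCs and no call by DESeq2. Among their upstream kinases 2 of 18 were lower in M-MDSCs and 3 of 17 in G-MDSCs, against 7.10% and 11.7% of all genes. When 1 library was left out, 0 to 4 were lower in M-MDSCs and 2 to 3 in G-MDSCs. *Braf*, an activator of the ERK cascade, had log2 fold changes of −0.73 (SE 0.19, adjusted p 0.0324) and −1.07 (SE 0.16, adjusted p 0.000563), and *Map3k1*, an activator of JNK, −0.69 (SE 0.20, adjusted p 0.0427) and −1.21 (SE 0.28, adjusted p 0.0089). Of a list of other DUSPs with *Ptpn7* and *Ppm1a*, *Dusp22* alone was called, higher in M-MDSCs at 0.61 (SE 0.17, adjusted p 0.0415) among 10 tested. That call was lost whichever of the 8 libraries was left out, and DESeq2 called 0 of the list. None of 9 was called in G-MDSCs, where none had an unadjusted p under 0.05 and DESeq2 called 0. Kinases activated by MAPKs gave 0 of 9 in M-MDSCs, where 2 had an unadjusted p under 0.05 and DESeq2 called 0. In G-MDSCs they gave 1 higher, *Mapkapk3* at 0.65 (SE 0.18, adjusted p 0.0243), and 1 lower, *Rps6ka5* at −1.27 (SE 0.39, adjusted p 0.0384), of 10. Each direction gave 0 to 1 when 1 library was left out. Of the inhibitors of Ras and ERK signalling, *Nf1* and *Rasa1*, both regulators of Ras, were lower among 3 tested in G-MDSCs. No Sprouty or Spred gene of that list was called there, and 1 to 2 genes were lower when 1 library was left out. None of 4 was called in M-MDSCs, with none at an unadjusted p under 0.05 and 0 by DESeq2.

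A list of 17 deadenylation genes held CCR4-NOT, which ZFP36 proteins recruit, its adaptors and other deadenylases such as *Parn*. Of these, 2 were lower in M-MDSCs, and 6 were lower and 1 higher in G-MDSCs. Of all genes 7.10% were lower in M-MDSCs and 11.7% in G-MDSCs. *Btg1*, an adaptor of the deadenylase, fell by 1.32 (SE 0.19, adjusted p 0.00298) and 1.57 (SE 0.25, adjusted p 0.000736) on the log2 scale in M-MDSCs and G-MDSCs. *Cnot4* fell by 1.04 and 1.00, and the scaffold *Cnot1* fell by 0.77 in G-MDSCs. The count of lower genes in G-MDSCs dropped from 6 to 1 after correcting for transcript GC and length and to 2 with a block on the replicate number, and was 3 to 5 when 1 library was left out. Of the decapping and 5′ decay genes, *Xrn1*, the main 5′ exonuclease of the cytoplasm, fell by 1.42 (SE 0.30, adjusted p 0.0141) in M-MDSCs and 1.79 (SE 0.20, adjusted p 6.26e-05) in G-MDSCs. It was the single gene of that group called among 10 in M-MDSCs, and in G-MDSCs 3 were lower and 1 higher of 9. Among 12 other proteins of mRNA binding and decay, *Pabpc1*, the poly(A)-binding protein, fell by 1.17 in both subsets and *Khsrp* by 0.68 in M-MDSCs.

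The mRNAs that ZFP36 proteins are known to bind or destabilise were mostly not called between the genotypes. None of 16 tested was called in M-MDSCs, with an unadjusted p under 0.05 for 3 and 1 call by DESeq2. In G-MDSCs 3 of 16 were higher and 1 was lower (4.70% and 11.7% of all genes). The higher ones were *Il1b* at 0.70 (SE 0.22, adjusted p 0.0378), *Ccl4* at 0.92 (SE 0.30, adjusted p 0.0479) and *Ccl3* at 0.86 (SE 0.28, adjusted p 0.0488), an inflammatory cytokine and a pair of chemokines. *Vegfa*, an angiogenic factor, was lower at −0.66 (SE 0.20, adjusted p 0.0342). The number higher was 0 to 3 when 1 library was left out. Between the subsets 11 of 17 were higher in G-MDSCs of WT mice, against 26.3% of all genes. In *Nlrp3*-/- mice 12 of 17 were higher, against 23.7%. With library size as the only scaling these numbers were 6 and 10.

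*Dusp1*, *Dusp2* and *Zfp36* are usually counted among the immediate early genes, which were called in both directions. In G-MDSCs 5 of 20 others were higher and 2 lower (4.70% and 11.7% of all genes), with *Egr2* at 1.99 (SE 0.40, adjusted p 0.00409), *Ier2* at 0.91 (SE 0.18, adjusted p 0.0039) and *Srf*, the serum response factor, at 1.01 (SE 0.24, adjusted p 0.01). In M-MDSCs 1 was higher, *Srf* at 0.84 (SE 0.17, adjusted p 0.0101), and 4 were lower, with *Klf6* at −1.48 (SE 0.23, adjusted p 0.00413). Of all genes 3.51% were higher and 7.10% lower there. When 1 library was left out, 0 to 4 were higher and 3 to 7 lower in M-MDSCs, and 3 to 6 higher and 1 to 2 lower in G-MDSCs. The summed level of the list ran like *Dusp1*, at 16611 to 20066 CPM in *Nlrp3*-/- and 9113 to 15925 CPM in WT G-MDSCs, and 4081 to 5152 and 4716 to 6742 CPM in the M-MDSC groups. Of 11 heat-shock genes that rise during tissue dissociation, 5 were lower in *Nlrp3*-/- M-MDSCs (7.10% of all genes) and 2 in *Nlrp3*-/- G-MDSCs (11.7%). Among the 5 was *Hspa1a* at −3.59 (SE 0.57, adjusted p 0.00427). Of 10 glucocorticoid-induced genes, another class with *Dusp1* as a member, 1 was higher and 1 lower in M-MDSCs (3.51% and 7.10% of all genes). In G-MDSCs 1 was lower (11.7%). The part of cell handling in the *Dusp1* and *Dusp2* values was not tested. None of the genes on these lists was called for a difference of the genotype effect between the subsets, where 4 of 20 immediate early and 3 of 11 heat-shock genes had an unadjusted p under 0.05 and DESeq2 called 0.

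**Figure D4:**
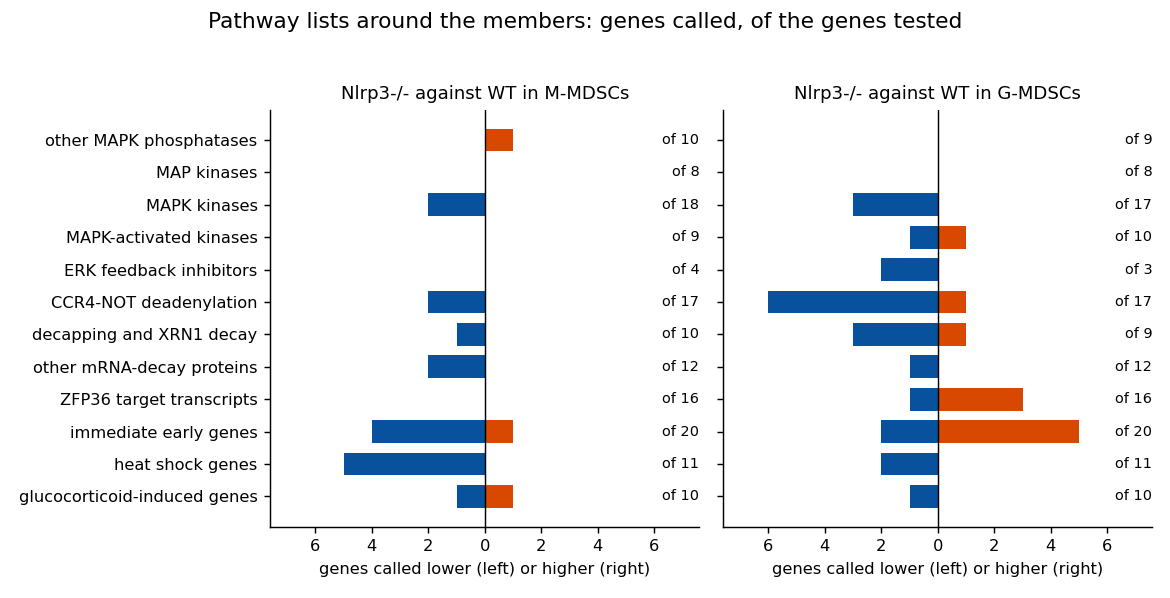
Number of genes called lower (blue, left of 0) and higher (orange, right of 0) in *Nlrp3*-/- against WT mice for 12 gene lists around the members, in M-MDSCs (left) and G-MDSCs (right), with the number tested at the side. In G-MDSCs the CCR4-NOT list has 6 lower and the immediate early list 5 higher. The CCR4-NOT list also holds other deadenylases, and the list of ERK feedback inhibitors also holds the Ras regulators *Nf1* and *Rasa1*.

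The genes whose log2 CPM followed each member most closely over the 16 libraries were listed by Pearson's r. They were *Mknk1* (0.986), *Junb* (0.984) and *Zfand3* (0.982) for *Dusp1*, *Fam101b* (0.993), *Ube2b* (0.986) and *Gmip* (0.983) for *Zfp36l1*, and *Rabgef1* (0.973), *Pde4b* (0.961) and *Satb1* (0.956) for *Dusp16*. These 3 members differ strongly between the subsets, and so do any genes that follow them. *Zfp36l2*, which was ordered by genotype, was followed by *Wapal* (0.973), *Smg1* (0.969) and *Tcf20* (0.966). *Dusp2* was followed by *Reps1* (0.952), *Tomm22* (0.923) and *Tmem179b* (0.907), and *Dusp6* by *Tmsb4x* (0.977), *Txnip* (0.969) and *Prex1* (0.968). For *Zfp36* the nearest were *Tnfsf14* (0.936), *Slc12a5* (0.936) and *Rbm47* (0.926), and for *Dusp10*, the member with the lowest likeness to any gene, *Trim13* (0.842), *Lars* (0.807) and *Cdc27* (0.801).

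On mm10 the members lie apart, except that *Dusp1* (chr17:26505590-26508519) and *Zfp36l2* (chr17:84183931-84187947) share chromosome 17, both on the minus strand. *Dusp2* is at chr2:127336159-127338376, *Dusp5* at chr19:53529109-53542431, *Dusp6* at chr10:99263231-99267488, *Dusp10* at chr1:184034381-184075636, *Dusp16* at chr6:134715473-134792625, *Zfp36* at chr7:28376784-28380253 and *Zfp36l1* at chr12:80107754-80113013. These are the spans of 1 transcript a gene. The longer gene records of *Dusp1* and *Dusp10* overlap *Ergic1* and *1700056E22Rik*, each on the opposite strand, but the spans given do not, and the authors' counting used strand.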

How the data were processed

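Raw counts per gene symbol in 16 QuantSeq 3′ FWD libraries (total RNA, 15 or 17 PCR cycles, single reads) were deposited by the authors, who mapped reads to mm10 with HISAT2 2.1.0 and counted them by strand with HTSeq, per the methods and the submitters' processing notes. The counts were used as deposited. Reads share PCR copies, so depth limits cover counting error only, and 3 counts equal 0.349 to 1.17 CPM. No pair of libraries of 1 group was identical or within sampling noise. The members, gene lists and tests were chosen with earlier results of these data known. All 9 members are named with every library, and of each list at most 3 called genes a direction, by smallest p. The 3 most similar genes a member were taken by Pearson's r of log2 CPM (prior count 2).

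Each comparison was fitted on all genes of its 8 libraries (16 for the difference of genotype effects) with edgeR 4.0.16 in R 4.3.3 after filterByExpr and TMM, by the quasi-likelihood test, and p was adjusted by Benjamini-Hochberg. The SE is the log2 fold change divided by the square root of F, and intervals are 1.96 SE. Groups and replicate numbers came from the sample titles. Same-numbered M-MDSC and G-MDSC libraries of a genotype are 1 mouse by the labels, and their deviations from group means had a mean correlation of 0.239 in WT and 0.19 in *Nlrp3*-/- mice, so the blocked value is given where it changes a call. Alternatives were DESeq2 1.42.0, its size factors, library size only (also without *Rn45s*, added after the data were seen), upper quartile, other filters, no fold minimum, edgeR's exact test, all 16 libraries in 1 model, a replicate block, a correction for GC content and length (splines with 4 degrees of freedom), and leaving out each library. The tests were checked on simulated counts with 200 genes changed 3-fold. Of these, 68 to 76% were recovered in the comparisons of 2 groups and 42.5% for the difference of genotype effects. False calls made up 2.86 to 6.67% of the calls. Transcripts and positions are from GENCODE M21 and promoters from RefSeq GRCm38.p6, where 8 members had an entry. Figures were drawn with matplotlib 3.10.9. No protein sequence was used here.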

Additional observations from a re-analysis of the deposited data

Results flagged for a closer look

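In 2 of the 48 groups of 4 libraries that were checked, 1 library stood far from the other 3, a check that chance alone meets in about 1 in 20 groups. *Dusp10* was at 19.6 CPM in WT G-MDSC replicate 2, where the nearest library of the group was at 10.5 CPM and the gap took up 0.887 of the range. The summed CPM of the neutrophil markers was 8795 in WT M-MDSC replicate 2, the nearest library of the group being at 1916 and the gap 0.944 of the range. Both libraries came from the same WT mouse. Without WT M-MDSC replicate 2, *Zfp36l2* kept its call in M-MDSCs (−1.58) and *Dusp1*, *Dusp16*, *Zfp36* and *Zfp36l1* kept theirs between the subsets in WT mice (1.93, 2.24, 1.36 and 1.95 on the log2 scale).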

How the results depend on the processing

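Of 888 refits of the members, 789 kept direction and side of the threshold, 18 lost a call, 17 gained one and 64 turned the direction, none of these last from a called value; no cause was tested. The number of members called in M-MDSCs went from 1 to 2 with DESeq2, edgeR's exact test or all 16 libraries in 1 model, to 0 with the replicate block and GC correction together, and to 1 to 3 without 1 library. Members called in G-MDSCs went from 3 to 1 with the GC and length correction, alone or with the block. Genes called in M-MDSCs went from 1060 to 425 with the replicate block, 655 with the GC correction, 48 with both and 450 to 1783 without 1 library; 514 were called without WT replicate 2 and 1783 were called without *Nlrp3*-/- replicate 1. Genes called in G-MDSCs went from 1522 to 985, 964 and 401 with the block, the GC correction and both. Same-numbered WT and *Nlrp3*-/- libraries are different mice and their deviations had mean correlations of −0.157 and −0.152, so the number does not pair them; under the block *Dusp1* in G-MDSCs was 0.91 (adjusted p 0.0671). For the difference of genotype effects 3 genes became 8 with DESeq2, 5 without a filter and 2 to 5 without 1 library. The share of calls that were lower was 66.9% in M-MDSCs and 71.4% in G-MDSCs, and 45.4% and 51.9% with library size only. Directions of uncalled log2 fold changes turned as follows. In M-MDSCs they were 0.018 for *Dusp6* with library size only, −0.21 and −0.19 for *Dusp2* and 0.083 and 0.14 for *Dusp16* with the GC correction without and with the block. In G-MDSCs *Zfp36* was 0.08 with library size only, 0.013 with the upper quartile and 0.034 in 1 model, and *Dusp16* was 0.12 and 0.13 with the GC correction without and with the block. Between subsets in WT mice *Zfp36l2* was −0.20 with library size only and −0.17 without *Rn45s* as well, *Dusp2* was 0.013 and 0.056 and *Dusp10* 0.039 and 0.074 with the GC correction without and with the block; in *Nlrp3*-/- mice *Zfp36l2* was −0.48 and −0.49 and *Dusp10* 0.043 with the block and GC correction. For the difference *Dusp10* was −0.059, −0.061, −0.093, −0.036, −0.045, −0.016 and −0.12 with DESeq2, its factors, library size, the upper quartile, the GC correction, that with the block, and library size without *Rn45s*, and *Dusp16* was −0.001, −0.02 and −0.052 with DESeq2 and both library-size settings. Without 1 library, values in M-MDSCs ran from −0.34 to 0.016 for *Dusp1*, −0.068 to 0.42 for *Dusp2*, −0.57 to 0.19 for *Dusp6* and −0.31 to 0.29 for *Dusp16*; in G-MDSCs from −0.35 to 0.066 for *Dusp16* and −0.37 to 0.22 for *Zfp36*; between subsets from −0.38 to 0.11 for *Dusp2* and −0.38 to 0.27 for *Dusp10* in WT and −0.48 to 0.059 for *Dusp10* in *Nlrp3*-/- mice; for the difference from −0.57 to 0.33 for *Dusp10*, −0.50 to 0.29 for *Dusp16* and −0.05 to 0.47 for *Zfp36l1*. Dusp5 could not be fitted except without a filter, and its depth allows no statement.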
